A study of Mus musculus with 4 samples.

Results

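This account follows the CpG methylation of 8 genes that write or erase DNA methylation, in embryonic brains with and without Tet1. The 8 genes came from a fixed list, Dnmt1, Uhrf1, Dnmt3a, Dnmt3b, Dnmt3l, Tet2, Tet3 and Tdg, and were looked up in the GENCODE vM21 annotation among 20807 protein-coding genes on chromosomes 1 to 19. Whole-genome bisulfite sequencing had been done on the brain of 1 male embryo per group at E11.5. The 4 groups were Tet1 knockout (KO) and wild type (WT) under a maternal diet with 30 ppm folic acid, called the excess diet, and KO and WT under the control diet of 3 ppm. All dams were Tet1 heterozygous, and all diets contained succinylsulfathiazole, which limits folate made by gut bacteria.

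The embryos were 129S6.cg Tet1<tm1Koh>, that is, 129S6 mice with a Tet1 allele from C57BL/6 that has a cassette at the first coding ATG. The study describes a short Tet1 transcript at a low level in WT and KO brains of this stage, and detected neither the long nor the short protein in either genotype. In its list of embryos for another assay, the entries with these embryo numbers give a neural tube defect for both KO embryos and none for both WT embryos, from 4 different litters. Genotype, phenotype and litter therefore cannot be told apart, and neither can diet and litter. With 1 library per group no difference within a diet or within a genotype has a replicate check, and each test on the reads of a pair of libraries is about those libraries and not about the groups they stand for. The brains were read whole, so a change in the mix of cells and a change within cells cannot be told apart, and cell type markers were not checked.

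On GRCm38 the writers are Dnmt1 at chr9:20907209-20959888 on the minus strand, and Uhrf1 at chr17:56303321-56323486, Dnmt3a at chr12:3806007-3914443, Dnmt3b at chr2:153649450-153687730 and Dnmt3l at chr10:78041947-78063622 on the plus strand. The erasers are Tet2 at chr3:133463679-133545139 and Tet3 at chr6:83362373-83459084 on the minus strand and Tdg at chr10:82629828-82650799 on the plus strand.

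As background, DNMT1 copies methylation to the new strand after replication, and UHRF1 brings it to hemimethylated CpGs. DNMT3A and DNMT3B set new methylation, and DNMT3L, which has no catalytic activity, stimulates them. TET enzymes oxidise 5-methylcytosine, and TDG excises its most oxidised forms, after which base excision repair restores cytosine. Tet2 and Tet3 are the paralogues of Tet1. Bisulfite does not separate 5-methylcytosine from 5-hydroxymethylcytosine, so both count as methylated here.

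The following stretches, on the plus strand of GRCm38 with every CpG in capitals, are shown because differences described below were located at them. The first lies in an intron of Dnmt3a, at chr12:3871684-3871963. The next lies upstream of the start of Dnmt3b, at chr2:153648609-153648850. The others lie in an intron of Dnmt3l at chr10:78043746-78043933 and in an intron of Tet3 at chr6:83418589-83418804.
Dnmt3a: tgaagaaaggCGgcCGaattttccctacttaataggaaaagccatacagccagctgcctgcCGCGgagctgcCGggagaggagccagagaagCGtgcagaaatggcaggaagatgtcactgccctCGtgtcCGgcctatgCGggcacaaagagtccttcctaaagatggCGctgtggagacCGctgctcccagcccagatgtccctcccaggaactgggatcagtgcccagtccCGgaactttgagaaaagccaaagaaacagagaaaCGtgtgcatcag
Dnmt3b: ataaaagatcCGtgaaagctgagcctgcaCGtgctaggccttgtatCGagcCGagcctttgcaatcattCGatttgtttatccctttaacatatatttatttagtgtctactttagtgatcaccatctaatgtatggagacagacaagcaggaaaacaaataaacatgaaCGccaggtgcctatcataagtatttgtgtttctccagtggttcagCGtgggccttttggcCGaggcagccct
Dnmt3l: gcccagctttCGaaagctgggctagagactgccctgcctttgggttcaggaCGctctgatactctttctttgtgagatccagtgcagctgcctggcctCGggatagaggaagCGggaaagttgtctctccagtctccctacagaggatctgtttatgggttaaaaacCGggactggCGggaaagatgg
Tet3: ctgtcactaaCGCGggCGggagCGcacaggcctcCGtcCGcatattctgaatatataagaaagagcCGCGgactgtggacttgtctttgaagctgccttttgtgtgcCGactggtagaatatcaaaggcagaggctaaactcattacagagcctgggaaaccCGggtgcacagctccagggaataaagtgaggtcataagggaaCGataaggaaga

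The mean coverage of autosomal CpGs was between 13.2 and 21.2 reads per library, lowest in KO of the excess diet and highest in KO of the control diet. Levels below are the share of methylated reads, summed over the CpGs of a window that had at least 5 reads in all 4 libraries. The mean level over all 14907672 such CpGs lay between 81.4% and 83.5%. At mitochondrial CpGs, a background for incomplete conversion, it lay between 0.914% and 0.938%. Differences are KO minus WT in percentage points, called points. A window was called at an adjusted p under 0.05 by Fisher's exact test, two-sided, together with a difference of at least 10 points. Ranges in parentheses are 95% Wilson intervals of a level, and intervals built from these for a difference, and cover counting error only.

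The largest CpG island of each gene was unmethylated or nearly so, except in Dnmt3l, and was thinly read. These 8 islands, 973 reference CpGs in all, had 54 CpGs with 5 reads in all 4 libraries. Single libraries reached 5 reads at 107 to 365 of them. The Dnmt3a island at chr12:3806152-3808478 held 292 CpGs and the Dnmt3b island at chr2:153649194-153650065 held 99, and none of either passed in all 4. The reads that each library listed still gave a level. The Dnmt3a island stood at 1.49% (KO) against 0% (WT) on the excess diet and 0.794% against 1.81% on the control diet, where the 0% rested on 65 reads, which allow up to 4.62%. The Dnmt3b island stood at 0% (KO) against 1.72% (WT) on the excess diet and 0.992% against 0% on the control diet. Its zeros rested on 60 and 298 reads, which allow up to 5.00% and 1.01%.

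The largest islands of Dnmt1, Uhrf1, Tet2, Tet3 and Tdg lay between 0% and 3.57% in every library. The 0% was that of Dnmt1 in WT of the excess diet, whose 78 reads allow up to 3.85%. Dnmt3l stood higher. Its island, at chr10:78043274-78043831 inside the gene, was at 9.70% (KO) against 4.42% (WT) on the excess diet and 12.8% against 3.64% on the control diet. Both KO libraries were above both WT libraries there, but each library listed its own subset of the 30 CpGs, so these levels were not tested. A pair of its CpGs passed in all 4 libraries. The 1 kb tile that contains this island also overlaps an exon of the protein-coding gene Aire. With a minimum of 200 bp the 8 genes held 24 islands, and 13 of the 16 others had at least 5 covered CpGs. Of these 13, 11 were methylated, between 55.2% and 100% in every library, and none was longer than 465 bp. The other 2, in Dnmt3a and Tet3, were at or under 3.50% in every library.

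**Figure D1:**
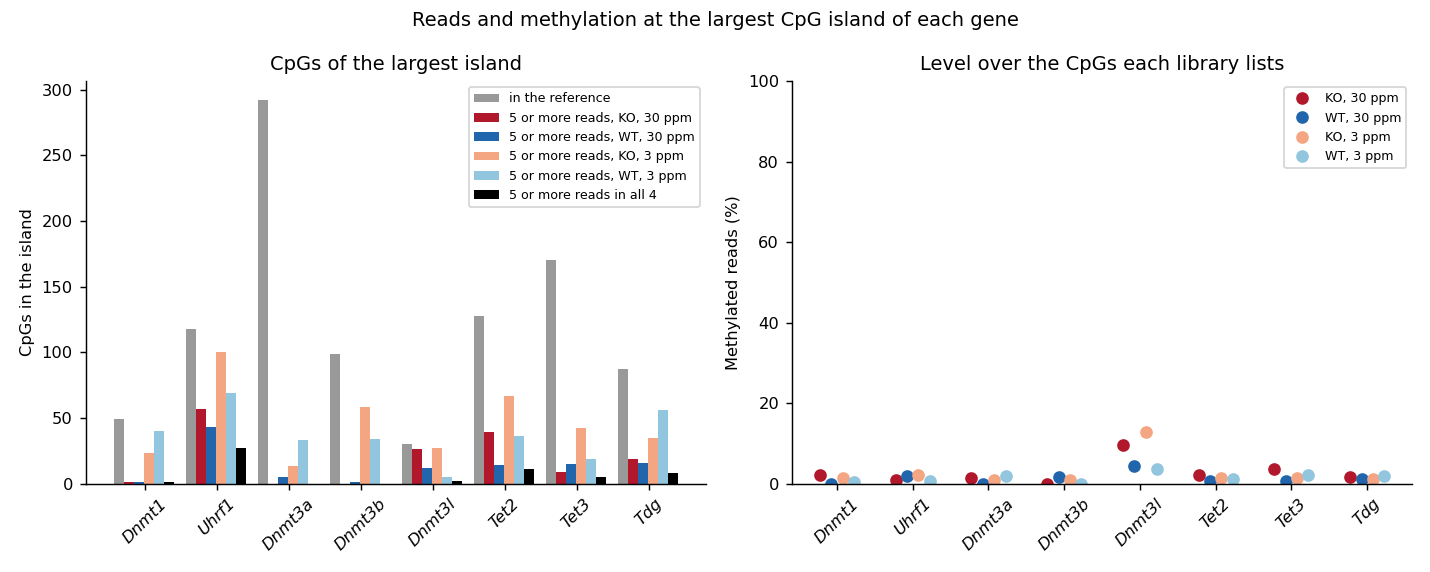
Left, the number of CpGs in the largest island of each gene in the reference, with at least 5 reads in each library, and with at least 5 reads in all 4. Right, the share of methylated reads (%) over the CpGs that each library listed there. The largest islands of 7 genes lie at or under 3.57% in every library, and that of Dnmt3l lies between 3.64% and 12.8%.

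Windows of 1 kb each side of the gene start held covered CpGs of the largest island in Uhrf1, Tet2 and Tdg. In Uhrf1 and Tet2 these were most of the covered CpGs. In the other genes the windows covered mostly the edge of that island, or a methylated start upstream of it. Covered CpGs were 6 of 104 in Dnmt3a, 8 of 131 in Dnmt3b, 17 of 130 in Tet2, 17 of 109 in Tdg, 27 of 105 in Uhrf1, 11 of 32 in Dnmt3l, 18 of 28 in Dnmt1 and 23 of 26 in Tet3. The median over all genes was 41.6% of the CpGs of such a window. In Dnmt1 and Tet3 the island begins 6.82 kb and 1.73 kb downstream of the start of the gene record.

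Of the 8 start windows, 1 was called higher in KO on the excess diet and 1 on the control diet, and none was called lower. Over all genes 15.4% of start windows were called higher on the excess diet and 16.6% on the control diet. The median difference of the 8 was 5.05 points (excess) and 5.71 points (control), beside 3.93 and 3.31 points over all 19924 genes tested. With 8 windows, 1 call is close to the share of all genes.

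Among the erasers, Tet2 was called on the excess diet. Its start window stood at 18.5% (13.5 to 24.9) for KO against 5.37% (3.02 to 9.35) for WT on the excess diet, and 12.3% (9.41 to 15.9) for KO against 6.15% (3.76 to 9.89) for WT on the control diet. Both KO libraries were above both WT libraries. The difference was 13.2 points (6.76 to 19.9, adjusted p = 0.00106) on the excess diet and 6.16 points (1.42 to 10.5, adjusted p = 0.0506) on the control diet by Fisher's exact test. Within the window the 6 covered CpGs from 133545090 to 133545177, around the start, had no methylated read in any library, on 49 to 106 reads, and 49 reads allow up to 6.12%. The call was lost with CpGs at least 150 bp apart, where 21.1 points had an adjusted p of 0.315 by Fisher's exact test, and when the z of the test was divided by its robust SD over all genes (adjusted p = 0.199). An exon of the antisense gene Gm42567 overlaps the tile that holds the Tet2 start.

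The other erasers were not called at their starts. Tet3 stood at 85.1% (KO) against 83.2% (WT) on the excess diet and 86.4% against 80.3% on the control diet. Tdg, the glycosylase, stood at 17.4% (KO) against 11.3% (WT) on the excess diet and 16.5% against 12.8% on the control diet. In both, the KO libraries were above the WT libraries by less than the calling limit.

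Among the writers, Dnmt3b was called on the control diet. The 8 CpGs of its start window, all in the stretch printed above, stood at 74.6% (66.6 to 81.2) for KO against 66% (58.2 to 73) for WT on the excess diet, and 79.6% (73.3 to 84.7) for KO against 57.9% (50.8 to 64.7) for WT on the control diet. The difference was 8.61 points (-2.02 to 18.8, adjusted p = 0.289) on the excess diet and 21.7 points (12.4 to 30.4, adjusted p = 7.91e-05) on the control diet by Fisher's exact test. With at least 10 reads a CpG the difference on the control diet was 21.7 points, and at equal depth 21 points, both called. With every CpG of 2 reads or more in all 4 libraries it was -0.34 points and not called. Nor was it called in a window of 2.5 kb each side (5.33 points) or by the robust z (adjusted p = 0.236). An exon of the antisense gene Dnmt3bos overlaps this place.

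Dnmt1, the maintenance enzyme, stood at 91.5% (KO) against 87.5% (WT) on the excess diet and 92.9% against 87.6% on the control diet at its start, a difference of 5.26 points (0.626 to 10.2, adjusted p = 0.0880) on the control diet by Fisher's exact test. Its partner Uhrf1 stood at 22.9% (KO) against 25.4% (WT) on the excess diet and 17.2% against 15% on the control diet. The differences of Uhrf1, Dnmt3a and Dnmt3l changed sign between the diets and were not called. They were -2.48 and 2.24 points in Uhrf1, 7.50 and -2.39 points in Dnmt3a, and -8.44 and 6.90 points in Dnmt3l, excess diet first.

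**Figure D2:**
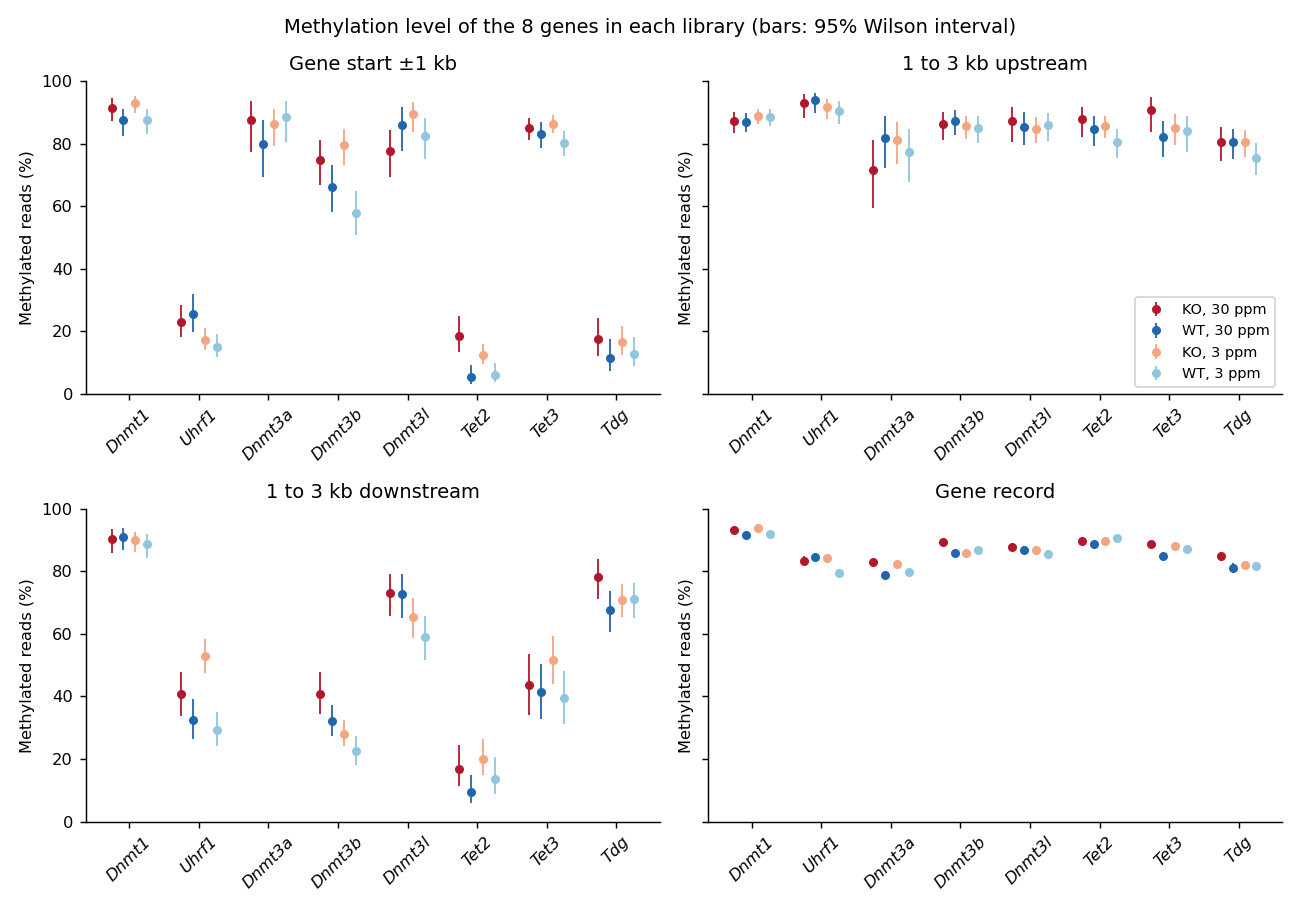
Methylation level (% of reads) of the 8 genes in each library, for the gene start ±1 kb, the flanks 1 to 3 kb upstream and downstream, and the whole gene record, with 95% Wilson intervals. The upstream flanks lie between 71.4% and 93.8% in all libraries, while the start windows of Uhrf1, Tet2 and Tdg lie at or under 25.4%, and Dnmt3a has no covered CpG in its downstream flank.

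Farther from the start, 1 flank was called. No upstream flank of the 8 was called in either diet, where 5.21% of all upstream flanks were called higher on the excess diet and 4.56% on the control diet. That of Dnmt3a differed by -10.5 points (-24.4 to 3.15, adjusted p = 0.506) by Fisher's exact test on the excess diet, over 7 CpGs. Of the 7 downstream flanks with enough CpGs, none was called on the excess diet and 1 on the control diet, beside 12.4% and 10.5% of all genes. It was that of Uhrf1, at 40.7% (33.8 to 47.9) for KO against 32.5% (26.3 to 39.3) for WT on the excess diet, and 52.9% (47.5 to 58.3) for KO against 29.3% (24.1 to 35) for WT on the control diet. The difference was 8.17 points (-1.51 to 17.7, adjusted p = 0.311) on the excess diet and 23.6 points (15.7 to 31.1, adjusted p = 5.3e-07) on the control diet by Fisher's exact test. With CpGs at least 150 bp apart, 19.9 points on the control diet had an adjusted p of 0.161 and were not called. The mean of the CpG levels differed by 12.3 points on the control diet, below the interval of the pooled difference. With at least 10 reads the excess diet gave -2.14 points. The call on the control diet was kept with at least 10 reads (35.9 points) and by the robust z (adjusted p = 0.0186). This flank crosses the end of the Uhrf1 island, whose covered CpGs, summed, were at or under 2.42% in every library. The 500 bp past that end, with 7 covered CpGs, stood at 52.1% (KO) against 22.6% (WT) on the excess diet and 41.5% against 21.8% on the control diet. These 500 bp had 82 (KO) and 87 (WT) reads on the control diet, of 325 and 263 in the flank. The pooled difference thus also depends on where reads fell, which Fisher's exact test on pooled reads does not separate from methylation. The median difference of the 7 downstream flanks was 7.35 points (excess) and 6.37 points (control), beside 3.26 and 1.83 points over all genes. That of the 8 upstream flanks was 0.132 and 1.09 points, beside 2.42 and 1.16 points.

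Over the 4205 covered CpGs of the 8 genes, from 3 kb upstream to the gene end, the difference was larger in island shores than away from islands. With islands of over 200 bp it was 4.39 (excess) and 3.22 points (control) in shores within 2 kb, 2.59 and 0.896 points elsewhere, and -1.87 and -2.61 points in islands, beside 2.42 and 3.46 points in all autosomal islands. The pooled island level also depends on how many reads fell in methylated and in unmethylated islands, which differed between libraries. In Tet2 on the control diet, a methylated island stood at 92.9% (KO) against 93% (WT), on 155 and 157 reads. The unmethylated one stood at 3.15% against 0%, on 254 and 151 reads, and the pooled difference was -10.2 points. With islands of over 500 bp, a limit chosen after seeing the data, the shores within 2 kb of an island stood at 63.5% (KO) against 55.6% (WT) on the excess diet and 63.9% against 57.5% on the control diet. That is 7.89 and 6.41 points, beside 5.39 and 4.09 points for such shores on all autosomes. In islands of that length the 8 genes differed by 1.14 and 1.76 points, the opposite sign, and all autosomes by 2.37 and 4.45 points. Outside islands and shores the 8 genes differed by 2.47 and 0.862 points, and all autosomal CpGs by 1.63 and 0.205 points. The 8 genes were not tested against all CpGs.

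**Figure D3:**
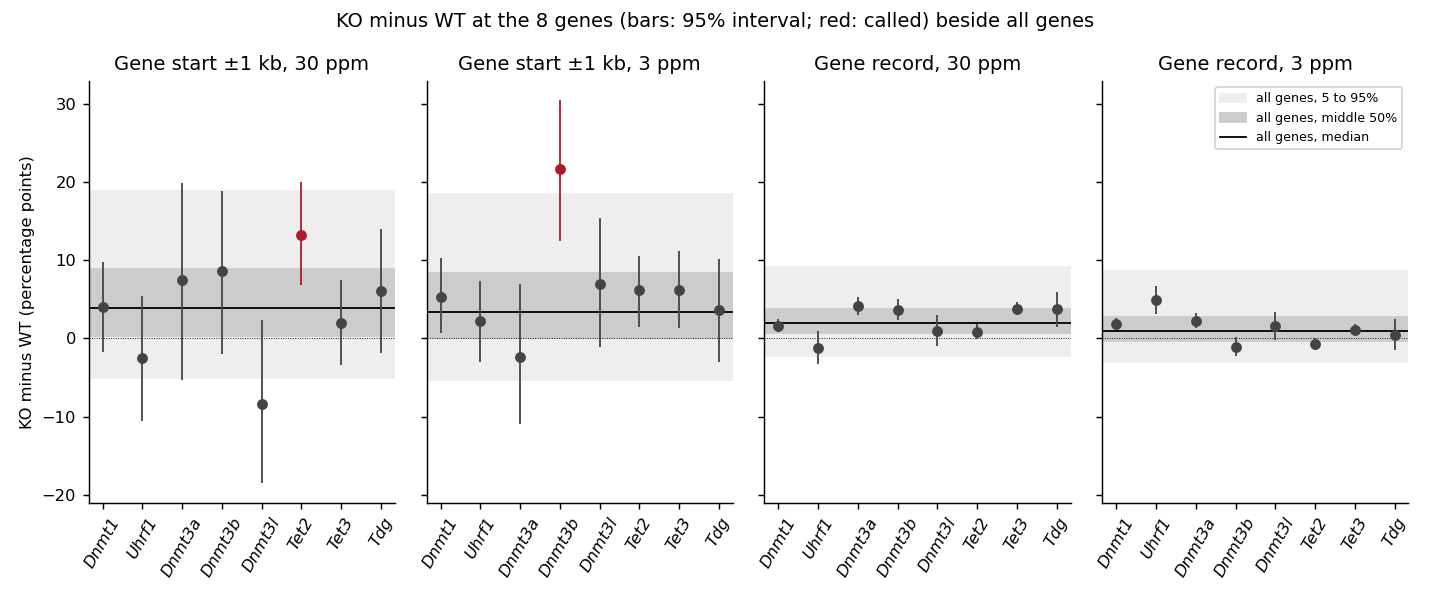
KO minus WT (percentage points) for the start window and the gene record of each gene at 30 ppm and 3 ppm, with 95% intervals and called windows in red. Bands give the middle 50% and the 5 to 95% range of all genes. Tet2 at 30 ppm (13.2 points) and Dnmt3b at 3 ppm (21.7 points) are the called start windows, and no gene record reaches 10 points.

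Over whole gene records, which hold 173 to 1002 covered CpGs, all 8 genes were highly methylated and no difference reached 10 points. Over all genes 3.53% of gene bodies were called higher on the excess diet and 3.41% on the control diet. By the adjusted p alone, 5 of the 8 passed on the excess diet, all higher in KO, where 46.9% of all genes passed. On the control diet 4 of 8 passed, all higher in KO, where 35% of all genes did. These counts were 3 and 2 with CpGs at least 150 bp apart, 3 and 2 with at least 10 reads, and 2 and 0 by the robust z. The shares of all genes under these alternatives are not given. Dnmt3a differed the most of the 5, with 82.9% (KO) against 78.8% (WT) on the excess diet and 82.2% against 79.9% on the control diet, or 4.13 points (3.03 to 5.23) and 2.26 points (1.31 to 3.21). Dnmt1 differed by 1.59 points (0.753 to 2.42) and 1.87 points (1.18 to 2.56), and Tet3 by 3.77 points (2.93 to 4.6) and 1.10 points (0.400 to 1.80). These 3 genes passed in both diets. The median over the 8 genes was 2.63 points (excess) and 1.33 points (control), beside 1.99 and 0.947 points over all genes.

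The other gene bodies passed in 1 diet or none. Dnmt3b stood at 89.4% (KO) against 85.8% (WT) on the excess diet and 85.8% against 86.9% on the control diet, so that KO of the excess diet was alone above the others. Tdg stood at 84.8% (KO) against 81.1% (WT) on the excess diet and 82.1% against 81.6% on the control diet. Uhrf1 stood at 83.4% (KO) against 84.6% (WT) on the excess diet and 84.3% against 79.4% on the control diet, where WT of the control diet was alone below the others. The covered CpGs of its unmethylated island had 206 (KO) and 164 (WT) reads on the excess diet and 372 and 345 on the control diet. The gene body had 2312 and 2433, and 4007 and 3016 reads, so its pooled level also depends on where reads fell. Outside islands and shores Uhrf1 differed by -0.26 and 2.05 points, and in shores by 2.52 and 6.34 points, which were not tested. Tet2 differed by 0.877 and -0.67 points, and Dnmt3l by 0.998 and 1.57 points, and neither passed.

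Whether KO minus WT itself differed with diet was asked by a Wald test of the log odds ratios. It passed an adjusted p of 0.05 for the gene bodies of Dnmt3b (3.68 and -1.05 points, adjusted p = 9.7e-06), Tet3 (3.77 and 1.10 points, adjusted p = 0.000116) and Uhrf1 (-1.19 and 4.88 points, adjusted p = 0.000712). That is 3 of 8, beside 16.1% of all gene bodies, and none of the 3 passed when only CpGs at least 150 bp apart were used. For Uhrf1 the share of reads in its unmethylated island, described above, enters this comparison too. No start window, flank or alternative start of the 8 genes passed, where 1.35% of all start windows, 0.156% and 0.906% of upstream and downstream flanks and 0.798% of alternative starts did.

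Diet was also compared within each genotype. No start window was called between the diets in KO or WT, beside 1.2% and 0.793% of all genes. Among gene bodies Dnmt3b passed in KO, higher by 3.59 points on the excess diet, where 9.54% of all genes passed. In WT 3 of 8 passed, beside 11.1% of all genes. Excess minus control was 5.25 points in Uhrf1, -1.82 points in Tet2 and -2.05 points in Tet3. The value of Uhrf1 also depends on the share of reads in its unmethylated island. Outside islands and shores WT of Uhrf1 stood at 94.9% (excess) and 93.4% (control). No gene body of the 8 passed between diets in KO or WT with CpGs at least 150 bp apart, and by the robust z 1 passed in KO and none in WT.

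Several of the 8 genes have internal start sites, and 13 of them, in Dnmt1, Dnmt3a, Dnmt3l, Tet3 and Tdg, had enough covered CpGs. None was called in either diet, beside 8.47% of all alternative starts called higher on the excess diet and 8.23% on the control diet. Their median difference was -0.04 points (excess) and 2.51 points (control), beside 2.17 and 1.14 points over all alternative starts. The start of Dnmt3a at 3891728, 85.7 kb into the gene, was low in every library, at 4.84% (KO) against 5.09% (WT) on the excess diet and 6.79% against 7.83% on the control diet over 32 CpGs. KO minus WT was -0.26 points (-3.50 to 2.98) and -1.05 points (-4.66 to 2.26) there. The start of Tet3 at 83441675 stood at 26% (KO) against 13.4% (WT) on the excess diet and 23.8% against 12.1% on the control diet, on 9 covered CpGs of 86. Both KO libraries were above both WT libraries, and the differences of 12.6 points (-0.78 to 25.3, adjusted p = 0.325) and 11.6 points (1.55 to 21.2, adjusted p = 0.146) by Fisher's exact test were not called. With CpGs at least 150 bp apart the excess diet gave -3.33 points. The other tested start of Tet3, at 83456392 in its largest island, gave -5.92 and 1.81 points on 7 covered CpGs of 174. The start of Dnmt1 at 20952979, also in its largest island, gave -5.50 and 3.23 points.

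To locate differences inside the genes, 1 kb tiles were compared, 427 of them from 3 kb upstream to the gene end. On the excess diet 8 of the 427 were called higher in KO and none lower, beside 1.13% of all 1863069 tiles called higher. On the control diet 6 were called higher, beside 1.1% of all tiles, and 1 was called lower, beside 0.113%. The counts called higher were 0 and 0 with CpGs at least 150 bp apart, by the robust z and with at least 10 reads 2 and 1, and at equal depth 5 and 1. The shares of all tiles under these alternatives are not given. Spacing and a higher read minimum leave fewer CpGs and reads in a tile. None was called lower with spaced CpGs, by the robust z or with tiles shifted by 500 bp. Tet3 held 4 of the 8, and no tile of Tdg was called in either diet. The median difference was 2.14 points (excess) and 0.835 points (control) over the 427 tiles, and 1.23 and -0.16 points over all tiles.

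The tile at chr12:3871001-3872000 in an intron of Dnmt3a, 65 to 66 kb downstream of the start, was called higher in KO in both diets. It was the only such tile among the 427, where 0.367% of all tiles were. Its 17 covered CpGs stood at 62.3% (53.7 to 70.2) for KO against 16% (11.4 to 22.1) for WT on the excess diet, and 38.5% (32.4 to 45) for KO against 20.5% (15 to 27.4) for WT on the control diet. Both KO libraries were above both WT libraries, over the tile and at 12 of the 17 CpGs. The difference was 46.3 points (35.8 to 55.4, adjusted p = 2.17e-13) on the excess diet and 18 points (8.80 to 26.5, adjusted p = 0.0172) on the control diet by Fisher's exact test. KO of the excess diet was also above KO of the control diet, by 23.8 points (13.1 to 33.8, adjusted p = 0.0320). This diet call was lost with CpGs at least 150 bp apart, by the robust z and at equal depth. With at least 10 reads a CpG the tile had too few CpGs to be tested.

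The CpGs of this tile had 6 to 17 reads each per library, and neighbouring CpGs share reads. The Dnmt3a stretch printed above holds 13 of the 17 CpGs, at 57.7% (KO) against 16.2% (WT) on the excess diet and 34.4% against 16.3% on the control diet. With all libraries thinned to equal depth the control diet gave 18.6 points at an adjusted p of 0.125 by Fisher's exact test, and with CpGs at least 150 bp apart neither diet was called (14.6 and 11.51 points). By the robust z the control diet had an adjusted p of 0.211. By the Wald test the diets' differences gave an adjusted p of 0.177.

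**Figure D4:**
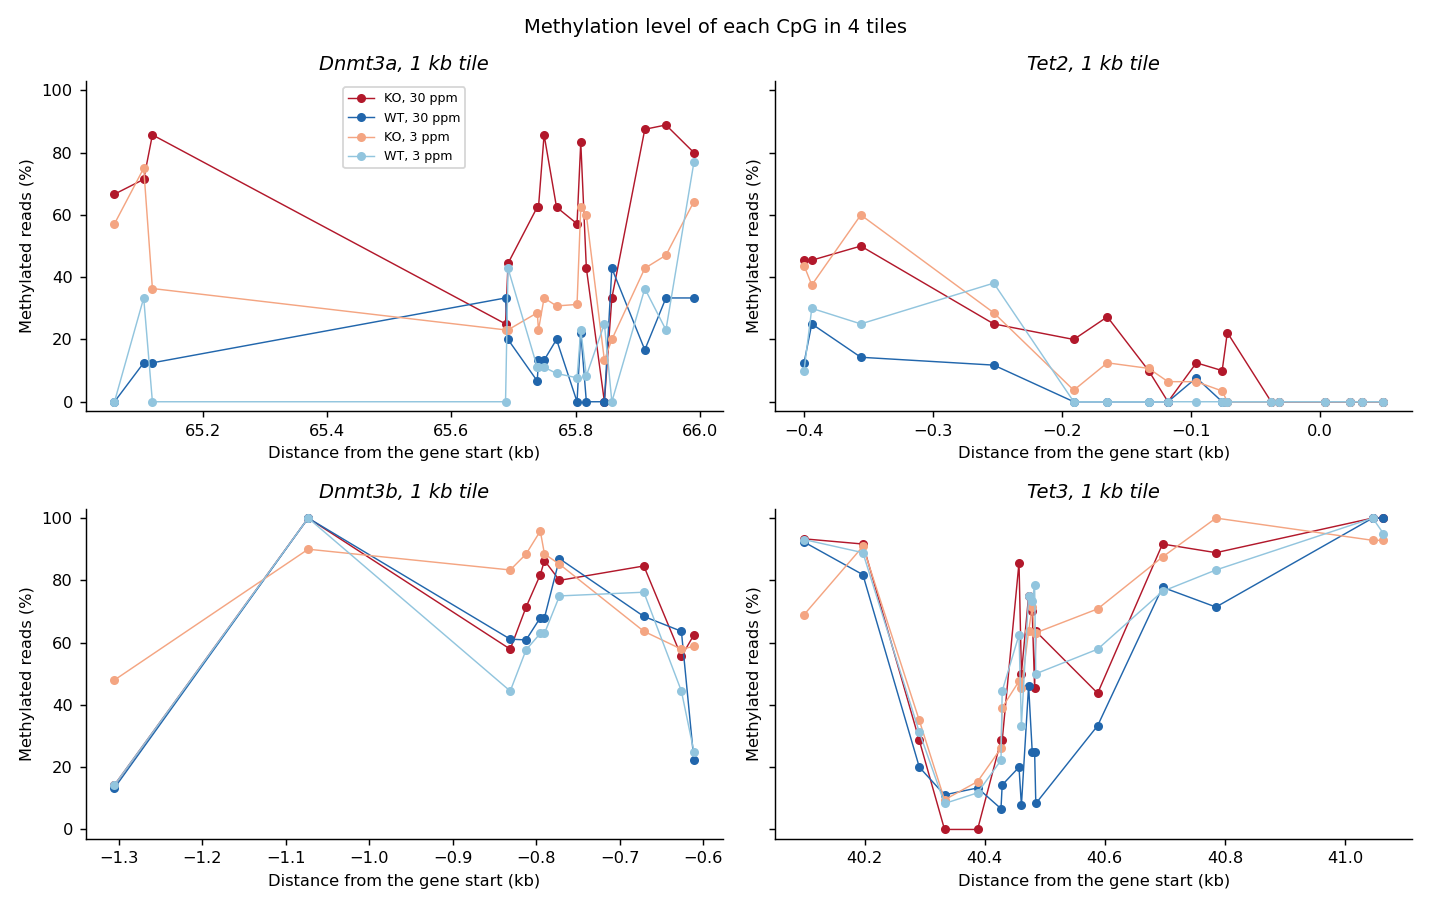
Methylation level (% of reads) of each covered CpG in 4 tiles of 1 kb, against the distance from the gene start (kb), with 1 line per library. In the Dnmt3a tile both KO lines lie above both WT lines at 12 of 17 CpGs. In the Tet2 tile the lines meet at 0 near the start, and both KO lines lie above both WT lines at 7 of 17 CpGs.

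Each gene but Tdg also had a tile called in 1 diet only, and the one of largest difference is given here. The genes had 21 (Tdg) to 98 (Dnmt3a) tested tiles each. How many of all genes hold such a tile was not computed, so this count has no background beside it. Each of the 7 named calls was lost under at least one alternative, and by the robust z all but that of Dnmt3b were lost. In Dnmt1 it was chr9:20951001-20952000, with 65% (KO) against 25.6% (WT) on the excess diet and 62.2% against 51.4% on the control diet, near the island of its downstream start. It rested on 5 CpGs, and 40 reads in the shallowest library. In Uhrf1 it was chr17:56304001-56305000, across the end of the island, with 10.9% (KO) against 6.10% (WT) on the excess diet and 19.4% against 4.29% on the control diet. In Dnmt3a it was chr12:3910001-3911000 near the gene end, with 90.6% (KO) against 88.1% (WT) on the excess diet and 91% against 73.4% on the control diet, where WT of the control diet was alone below the other libraries. The control diet was not called there with at least 10 reads (adjusted p = 0.395 by Fisher's exact test), at equal depth (0.0964), with spaced CpGs (0.999) or by the robust z (0.165).

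In Dnmt3b it was chr2:153648001-153649000, which holds the 8 CpGs of the start window and a few more, 10 in all. In Dnmt3l it was chr10:78043001-78044000, with 39.7% (KO) against 20% (WT) on the excess diet and 40.0% against 13.6% on the control diet. Both KO libraries were above both WT libraries there, and the difference was 19.7 points (1.92 to 35, adjusted p = 0.453) on the excess diet and 26.4 points (13.4 to 38, adjusted p = 0.0121) on the control diet by Fisher's exact test. An exon of Aire lies in the same tile. In Tet2 it held the same 17 CpGs as the start window. In Tet3 it was chr6:83436001-83437000, with 75.9% (KO) against 38.1% (WT) on the excess diet and 68.1% against 64.1% on the control diet.

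The tile called lower in KO, on the control diet, was chr2:153663001-153664000 in an intron of Dnmt3b, with 90.0% (KO) against 89.5% (WT) on the excess diet and 85.6% against 96.2% on the control diet. It was named after its values were seen, as were 2 Tet3 tiles. The Tet3 tile chr6:83442001-83443000, beside the start at 83441675, stood at 60% (KO) against 22.4% (WT) on the excess diet and 52.6% against 25.4% on the control diet. Its difference of 37.6 points (17.1 to 54.1, adjusted p = 0.0399) on the excess diet was called, and that of 27.3 points (11.52 to 41.2, adjusted p = 0.0559) on the control diet was not, by Fisher's exact test. The tile had 6 of its 18 CpGs covered, on 40 (KO) and 49 (WT) reads on the excess diet. An exon of the processed transcript B230319C09Rik overlaps it.

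The other, chr6:83418001-83419000, lies in an intron of Tet3 over an exon of the unclassified transcript 5430434F05Rik. It stood at 66.5% (59.1 to 73.1) for KO against 40.0% (34 to 46.3) for WT on the excess diet, and 57.7% (52.7 to 62.6) for KO against 63.9% (58.5 to 69) for WT on the control diet. WT of the excess diet was alone below the other libraries. It was the 1 tile of the 427 that passed the Wald test between diets (adjusted p = 0.00184), where 0.0692% of all tiles did. With CpGs at least 150 bp apart KO minus WT was 8.10 points on the excess diet, and with at least 10 reads 17.7 points, and neither was called. By the mean of the CpG levels it was 18.4 points (excess) and -0.11 points (control). Excess minus control in WT was -23.9 points (-31.8 to -15.6, adjusted p = 0.000464) by Fisher's exact test. It was the 1 tile of the 427 called between diets in WT (0 with CpGs at least 150 bp apart or at least 10 reads), beside 0.047% of all tiles, and the Dnmt3a tile above was the 1 called in KO, beside 0.0683%. The 11 CpGs of the Tet3 stretch printed above stood at 47.1% (KO) against 17.6% (WT) on the excess diet and 42.6% against 44.4% on the control diet.

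**Figure D5:**
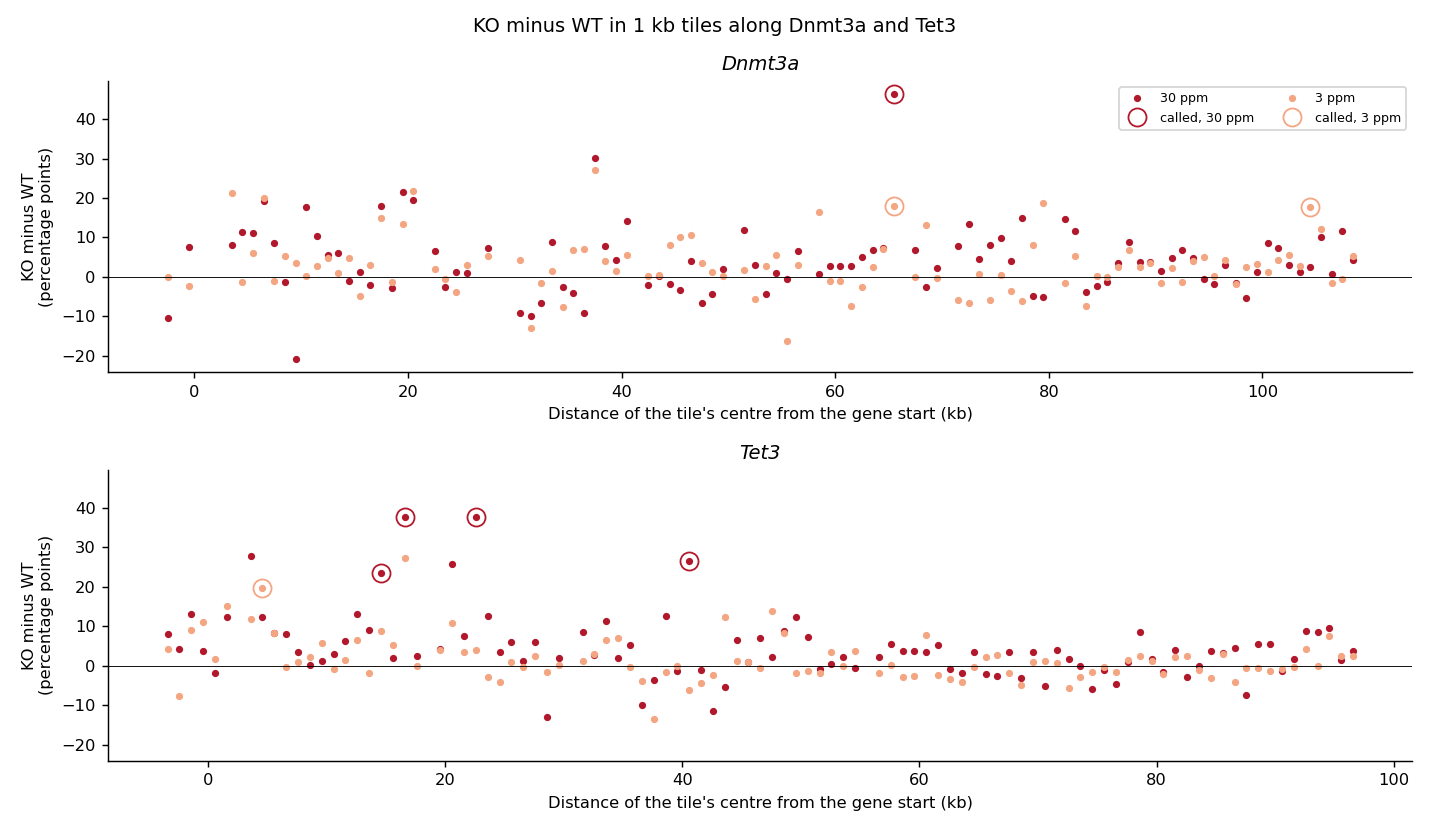
KO minus WT (percentage points) in 1 kb tiles along Dnmt3a and Tet3, against the distance of the tile's centre from the gene start (kb), at 30 ppm and 3 ppm, with called tiles circled. The Dnmt3a tile 65 to 66 kb downstream is circled for both diets, at 46.3 and 18 points, and the 4 tiles of Tet3 circled for 30 ppm lie between 23.4 and 37.8 points.

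The differentially methylated regions (DMRs) that the authors deposited fell in Dnmt3a and Tet3 among the 8 genes. Of 4436 regions higher in KO on the excess diet, 5 overlapped one of the 8 genes, 3 in Dnmt3a and 2 in Tet3. Of 4437 on the control diet, 3 did, all in Dnmt3a. So 2 of the 8 genes held such a region on the excess diet and 1 on the control diet, beside 11.6% and 11.9% of all genes, and Dnmt3a and Tet3 are the longest of the 8. None of the regions lower in KO and none of the diet regions did. Those at chr12:3871554-3872010 and chr12:3871112-3871370 (excess) and chr12:3871001-3871392 (control) lay in or across the Dnmt3a tile above. The first held 15 covered CpGs, with 63.2% (KO) against 20.5% (WT) on the excess diet and 38.8% against 28.2% on the control diet. Farther upstream, chr12:3825898-3826159 (excess) and chr12:3826034-3826275 (control) overlapped each other, and the latter stood at 68.8% (KO) against 46.4% (WT) on the excess diet and 62.8% against 36.1% on the control diet. The region at chr12:3835034-3835215 had no covered CpG. In Tet3 the region chr6:83454990-83455235 stood at 97.2% (KO) against 56.4% (WT) on the excess diet and 92.2% against 76.3% on the control diet, on 5 CpGs. The region chr6:83438005-83438244 stood at 76% (KO) against 19% (WT) on the excess diet and 48.8% against 48.1% on the control diet, on 4 CpGs.

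A fit over both diets, by limma with diet in the model, was the only one in which the spread between libraries entered. It had 1 residual degree of freedom before moderation. With 1 library per group, that residual is the difference of KO minus WT between the diets. Spread between embryos of the same group was not measured. Of the 8 start windows, that of Tet2 passed (adjusted p = 0.0436), beside 7.5% of all genes. No start window of the 8 passed when KO of the excess diet, WT of the excess diet or WT of the control diet was left out. No flank, gene body or alternative start of the 8 genes passed, beside 1.17% and 4.18% of all upstream and downstream flanks, 7.13% of gene bodies and 1.99% of alternative starts. By limma 0 of 427 tiles passed, and 0 of all 1863069 (0%), where the smallest adjusted p was 0.136. At an unadjusted p under 0.05 by limma, 54 of the 427 passed, beside 7.75% of all tiles.

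Dnmt3l and Tdg lie on chromosome 10 with Tet1, 15.1 and 19.7 Mb from it, where C57BL/6 sequence can remain around the KO allele. Among the 4205 covered CpGs of the 8 genes, 0 were at or above 80% in both libraries of one genotype and at or below 10% in both of the other, the pattern a lost CpG would give, beside 645 of all 14907672 CpGs. Any further part of such sequence in the differences was not tested.

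The wider pathway was read from 29 related genes on a fixed list, all with covered start windows. On the excess diet 6 were called higher in KO, on the control diet 3, and none lower, beside 15.4% and 16.6% of all start windows, with median differences of 4.06 and 3.1 points, beside 3.93 and 3.31 points over all genes. With CpGs at least 150 bp apart 0 and 0 of the 29 were called, and by the robust z 1 and 0, where the shares of all genes are not given. Of the calls above, 3 in each diet were among 11 base excision repair genes. Smug1, a glycosylase that removes uracil, stood at 63.6% (KO) against 38.6% (WT) on the excess diet and 62.3% against 39.6% on the control diet, on 13 CpGs, and was called in both. Neil3, a glycosylase for oxidised bases, was also called in both, at 53.6% (KO) against 37.7% (WT) on the excess diet and 49.9% against 37.6% on the control diet. Its paralogue Neil2 was called on the excess diet (19.2 points, and 8.48 points on the control diet), and Polb, the gap-filling polymerase, on the control diet (10.4 points, and 3.79 points on the excess diet).

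Of 6 genes listed as readers, most of which encode proteins that bind methylated DNA, Zbtb4 (24 points) and Uhrf2 (11.48 points) were called on the excess diet and none on the control diet, where they differed by 11.9 and 8.83 points. Of 5 partners and regulators of TET enzymes, Gadd45a was called on the excess diet (11.3 points, and 1.72 points on the control diet). It stood at 35.3% (KO) against 24% (WT) on the excess diet and 39.1% against 37.4% on the control diet. WT of the excess diet was alone below the other libraries there. None of 7 partners and regulators of the methyltransferases was called at its start. Of the 29 gene bodies 3 were called higher on the excess diet and 2 on the control diet, beside 3.53% and 3.41% of all genes, with medians of 3.15 and 1.65 points, beside 1.99 and 0.947 points. By the robust z 0 and 0 were called. That of Smug1 was called in both, at 65.7% (KO) against 54.2% (WT) on the excess diet and 66.7% against 56.6% on the control diet. The others were called in 1 diet: Apex1 (14.3 points on the excess and -5.43 points on the control diet) and Dppa3 (10.7 and 5.50 points) on the excess diet, and Neil1 (0.946 and 11.3 points) on the control diet. Between diets in WT, Apex1 was called, with excess minus control at -13.4 points, beside 47 called higher and 48 called lower of all 20195 gene bodies.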

How the data were processed

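The authors trimmed reads with Trim Galore 0.6.10, aligned them with Bismark 0.23.1 to GRCm38.p6 (mm10), removed duplicates and joined the strands, per the labels and the study's methods. Per CpG, the deposited tables hold the fraction of methylated reads and the count of reads, without normalisation by the authors. Their product was rounded to methylated reads. Deposited DMR lists hold positions only.

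Reads were summed over windows (gene start ±1 kb, flanks of 1 to 3 kb, gene record, alternative starts, 1 kb tiles) with at least 3 CpGs of at least 5 reads in all 4 libraries. Pairs of libraries were compared by Fisher's exact test, two-sided, with Benjamini-Hochberg adjustment over all windows of a kind on chromosomes 1 to 19. The diets' differences were compared by a Wald test with 0.5 added to each count, and both diets together by limma 3.58.1 in R 4.3.3 on log2((methylated + 1)/(unmethylated + 1)). One read can count at several CpGs, so p-values and intervals can be too small. Islands (over 200 bp, GC at least 50%, observed over expected CpG over 0.6) came from the reference sequence. Coordinates are 1-based.

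The 8 genes and the list of 29 related genes were chosen with earlier results of these data known. Named tiles were, per gene, up to 3 called the same way in both diets and 1 called in 1 diet only, by size. Related genes were named where their start window was called and, after the values were seen, where their gene body was called. The call by Fisher's test was tested on simulated start windows of KO versus WT at 30 ppm, 19924 in all. Of 100 windows changed by 20 points 90% were called, and of 100 changed by 10 points 25%, with 4 unchanged windows called. By the adjusted p alone 90% and 35% passed, since a call also needs an observed difference of at least 10 points. The changed windows had at least 100 reads in each library and no high base level, and several start windows of the 8 genes were methylated higher or read less. Reads were drawn independently, without spread between libraries or reads shared by CpGs, so these shares need not hold for the real data. Alternatives were other read minimums, equal depth, spaced CpGs, other window sizes, a robust z and other forms of the limma fit. Some sequence is not reported here.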

Additional observations from a re-analysis of the deposited data

Results flagged for a closer look

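KO minus WT differed between the libraries of the excess and of the control diet in 3 gene bodies and 1 tile, by the Wald test between their log odds ratios. This was beside 16.1% of all gene bodies and 0.0692% of all tiles. Diet and litter cannot be told apart here. With CpGs at least 150 bp apart 0 of the 8 gene bodies and 0 of the 427 tiles passed, and with at least 10 reads 0 tiles. In the gene body of Dnmt3b the values were 3.68 (excess) and -1.05 points (control), with an adjusted p of 9.7e-06. The gene body of Tet3 had 3.77 and 1.10 points, with an adjusted p of 0.000116. The gene body of Uhrf1 had -1.19 and 4.88 points, with an adjusted p of 0.000712, and its pooled level also depends on the share of reads in its unmethylated island. The Tet3 tile that starts at 83418001 had 26.5 and -6.24 points, with an adjusted p of 0.00184, and by the mean of the CpG levels 18.4 and -0.11 points, which were not tested. Each rests on 1 library per group, and whether another embryo would show it was not tested.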

How the results depend on the processing

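No paired analysis was possible because the labels give no replicate numbers shared between groups. Of 456 alternatives to the 76 counts of calls, 392 stayed within 1.5 times the reported count. Most of the 76 counts were 0, and each 0 that stayed 0 is among the 392, so the 392 says little about the calls. Of 886 alternatives to 126 single values, 65 were no longer past the threshold, 5 came past it, 39 that had no call or no test moved beyond their interval, and over all 886, 57 changed sign, 1 of them from a called value (Dnmt3b, below). Most of the 126 single values had no call to lose. Where too few CpGs were left, an alternative gave no value, and in the counts such a window stood as not called. Below, 2 values in a row are the excess then the control diet, and the shares of all windows under each alternative are not given. With CpGs at least 150 bp apart, 0 and 0 start windows, 0 and 0 tiles higher, 0 tiles lower and 0 downstream flanks were called, 0 tiles between diets in either genotype, 3 and 2 gene bodies passed, 0 between diets in KO or WT, and 0 gene bodies or tiles by the Wald test; of related genes, 0 and 0 starts and 0 and 1 gene bodies were called. By the robust z, 0 and 0 start windows, 2 and 1 tiles higher and 0 lower or between diets in KO were called, 2 and 0 gene bodies passed, 0 between diets in WT, and 1 and 0 related starts and 0 and 0 related gene bodies. With at least 10 reads, 2 start windows (control), 2 and 1 tiles and 0 tiles between diets were called, 0 tiles passed the Wald test, 3 and 2 gene bodies passed, and 0 related gene bodies (control) were called. With at least 2 reads, 0 start windows and 1 alternative start (control), 1 downstream flank (excess) and 1 start window between diets in KO and 1 in WT were called, and 2 gene bodies passed between diets in KO; Dnmt3b at its start on the control diet turned to -0.34 points. Thinned to equal depth, 5 and 1 tiles, 0 between diets in KO and 1 related gene body (control) were called. Start windows of 0.5 kb each side gave 0 (control) and 0 and 1 related genes, and of 2.5 kb 0 (control) and 1 between diets in WT. Gene bodies beyond 3 kb gave 1 and 1 related calls, and shifted tiles 0 lower. On the fraction scale limma passed 0 start windows and 1 alternative start, and leaving out a library 0 to 1 of each. The cause of these changes was not tested. In the largest islands of the 8 genes 54 of 973 CpGs had 5 reads in all 4 libraries, so most of their CpGs were not tested.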
